A study of Homo sapiens with 12 samples.

Results

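Of the 166523 merged open-chromatin regions on chromosomes 1 to 22 and X, 14817 (8.9%) had an ATAC-seq peak in both libraries of doxycycline-induced Y537S cells and in none of the other 10 libraries. These regions, called Y537S-only regions here, were chosen by the presence and absence of peaks in all 12 libraries, so their count and their absence elsewhere are a description of that choice. ATAC-seq maps accessible DNA by the insertion sites of a transposase, and a peak is a stretch with more fragments than the background of the library. MDA-MB-453, the line used, is an established breast cancer line that lacks the estrogen receptor (ER). They had been engineered to express ER alpha from a doxycycline-inducible construct in 3 forms, Y537S, K303R and wild type (WT). For each form, 1 library was made from cells with doxycycline and estradiol (Dox+E2), 1 with doxycycline (Dox), 1 with estradiol (E2) and 1 untreated. Doxycycline was given at 2 ug/mL and E2 at 1 nM for 2 days, and the controls of a form carried the same construct. The labels do not say whether a line is 1 clone, and each group was 1 library, so no value below has a replicate error and no test between conditions was made.

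ER alpha is a hormone-activated transcription factor. It binds estrogen response elements (EREs), palindromes of the arm GGTCA and its inverted repeat around a spacer, and it also reaches DNA through other factors such as AP-1. In breast cells its binding sites lie mostly in enhancers, where the pioneer factors FOXA1 and GATA3 hold chromatin open. Y537S is a mutation in the ligand-binding domain, found in breast tumors that became resistant to endocrine therapy, that holds the receptor in an active shape without hormone. K303R lies in the hinge region of the receptor.

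The line showed its luminal character in the peak lists. FOXA1, GATA3, SPDEF, XBP1, KRT8, KRT18 and ERBB2, markers of luminal or HER2-expressing cells, had a peak within 1 kb of their gene's ends in all 12 libraries, and TFAP2B in 10. The basal markers KRT5, KRT14 and TP63, the immune markers CD3D and CD14 and the endothelial marker PECAM1 had one in 0 libraries, the immune marker PTPRC in 4 and the stromal marker COL1A1 in 12. None of these gene ends carried a Y537S-only region. The lists held 133963, 132496, 118631 and 106291 peaks for Y537S cells with Dox+E2, Dox and E2 and without treatment, and between 39522 and 102713 peaks for the K303R and WT libraries. Totals of reads were not used here. Peak-calling settings were not given, so a fragment below means 1 unit of pileup as the peak caller counted it. The background of a library ranged from 0.143 to 0.442 fragments. The median summit pileup (the number of fragments stacked at a peak's highest point) across the 16630 always-open regions (a peak in each of the 12 libraries) was 24 in both induced Y537S libraries, 34 with E2 and 31 untreated, but 11 to 17 in K303R and 8 to 19 in WT libraries. The untreated K303R library stood apart, with the fewest peaks (39522) and a ratio of this signal to background of 24.9, where the other 11 had 47.1 to 102. The tag that opens the peak names was the same for all 4 Y537S libraries and was held by no library of another form. It contains the word trypsin, and the sample labels do not say what it marks. Against the other forms, the receptor form, the cell line and whatever the tag marks therefore cannot be told apart. The comparison with uninduced Y537S cells lies inside 1 tag.

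At gene starts the Y537S-only regions could be read as sequence. In the RefSeq promoter table (GRCh38.p14), which holds 34789 windows of 300 bases, from 250 before to 50 after a start, 148 Y537S-only regions (0.999%) overlapped 164 windows of 152 genes, of which 64 were protein-coding. The windows below, chosen after their values were seen, are shown 5′ to 3′ on the strand of the gene. RGS12, OXT, TEX35 and GCKR are the protein-coding genes whose window matched the ERE with 1 mismatch, and CHID1 is the protein-coding gene with the strongest region summit inside its window. Capitals mark the ERE-like site in the first 4 sequences and the arm GGTCA, in either direction, in the last.
RGS12, chr4:3385425-3385724, + strand: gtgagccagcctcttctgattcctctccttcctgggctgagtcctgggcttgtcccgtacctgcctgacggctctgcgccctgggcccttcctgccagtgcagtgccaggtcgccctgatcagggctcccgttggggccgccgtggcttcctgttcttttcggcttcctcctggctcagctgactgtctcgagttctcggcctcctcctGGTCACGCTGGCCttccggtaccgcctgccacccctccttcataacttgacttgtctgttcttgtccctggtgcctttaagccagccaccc
OXT, chr20:3071370-3071669, + strand: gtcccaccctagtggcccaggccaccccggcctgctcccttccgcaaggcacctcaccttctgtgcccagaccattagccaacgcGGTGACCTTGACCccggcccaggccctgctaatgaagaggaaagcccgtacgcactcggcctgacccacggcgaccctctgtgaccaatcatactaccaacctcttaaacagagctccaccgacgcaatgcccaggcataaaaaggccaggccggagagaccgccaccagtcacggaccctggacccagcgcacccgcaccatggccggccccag
TEX35, chr1:178512859-178513158, + strand: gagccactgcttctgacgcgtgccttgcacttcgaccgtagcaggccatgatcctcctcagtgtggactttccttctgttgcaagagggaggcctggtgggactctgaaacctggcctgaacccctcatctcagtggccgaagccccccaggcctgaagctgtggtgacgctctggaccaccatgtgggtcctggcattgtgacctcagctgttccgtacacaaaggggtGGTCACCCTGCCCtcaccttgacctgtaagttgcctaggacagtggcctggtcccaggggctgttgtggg
GCKR, chr2:27496589-27496888, + strand: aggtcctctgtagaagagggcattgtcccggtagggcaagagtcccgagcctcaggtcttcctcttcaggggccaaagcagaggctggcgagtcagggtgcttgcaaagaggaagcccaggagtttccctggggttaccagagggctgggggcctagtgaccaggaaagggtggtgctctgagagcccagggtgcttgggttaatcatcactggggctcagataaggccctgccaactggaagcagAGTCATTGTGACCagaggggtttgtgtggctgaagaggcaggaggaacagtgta
CHID1, chr11:914796-915095, - strand: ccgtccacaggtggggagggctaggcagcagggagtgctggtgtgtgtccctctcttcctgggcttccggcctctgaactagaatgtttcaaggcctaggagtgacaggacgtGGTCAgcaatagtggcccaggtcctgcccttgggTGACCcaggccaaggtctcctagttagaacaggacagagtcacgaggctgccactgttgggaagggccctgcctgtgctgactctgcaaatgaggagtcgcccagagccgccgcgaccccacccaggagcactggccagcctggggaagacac

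RGS12 encodes a regulator of G-protein signalling. Its site differs from the ERE consensus GGTCANNNTGACC by A11G, counted from 1 at the 5′ end of the consensus, and begins 41 bases before the start; the region summit lay 56 bases before the start, with a pileup of 11 fragments in Dox+E2 and 11 in Dox cells. OXT, which encodes the hormone oxytocin, carried a site with C4G that begins 165 bases before the start, and the summit lay 183 bases before it, with pileups of 10 in Dox+E2 and 7 in Dox cells. TEX35, a testis-expressed gene, had a site with A11C that begins 20 bases before the start. The region there had its summit 55 bases after the TEX35 start, outside the window, and pileups of 20 in Dox+E2 and 8 in Dox cells. GCKR, which encodes the regulatory protein of glucokinase, had a site with G1A that begins 4 bases before the start, with the summit 206 bases before it and pileups of 8 in Dox+E2 and 6 in Dox cells. At CHID1, a gene for a chitinase-domain protein, the window held the arm 2 times but no ERE within 1 mismatch, and the summit, 88 bases before the start, had pileups of 24 in Dox+E2 and 16 in Dox cells.

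Across the 164 windows, 9 (5.49%; exact Clopper-Pearson 95% interval 2.54 to 10.2%) held an ERE with at most 1 mismatch on either strand, and in 8 of them the site lay inside the Y537S-only region. The TEX35 window and that of its divergent neighbour LOC101928866 share 1 site, so windows are not independent. The share was 7.09% (4.39 to 10.7%) for the windows overlapped by the other 15541 regions that Dox opened in Y537S cells, and 14.5% (6.86 to 25.8%) for regions that Dox opened in all 3 forms. For regions open in all 12 libraries it was 0.481% (0.360 to 0.631%), and over all windows 0.819%. The only perfect ERE in a window with a Y537S-only region, at MROH7-TTC4, lay outside the region. The arm GGTCA was in 65.2% of the windows (57.4 to 72.5%), against 69.9% for the other Dox-opened regions, 33.8% for regions open in all libraries and 37.3% of all windows. An ERE match with at most 1 mismatch keeps at least 1 arm intact, so each such match also counts as an arm match and the shares are not separate. The AP-1 motif TGANTCA was in 10.98% (6.64 to 16.8%) of the windows, against 21.6% (17.0 to 26.9%) for the other Dox-opened regions and 7.69% of all windows. The forkhead motif TGTTTAC was in 1 window (0.610%, 0.0154 to 3.35%), against 3.9% (1.96 to 6.87%) for the other Dox-opened regions and 3.42% of all windows. The GATA motif AGATAA was in 9.76% of windows with a Y537S-only region and in 10.4% of all windows, and the AP-2 motif GCCNNNGGC in 21.95% and 23.2%; the grainyhead motif AACCGGTT was in 0 of the 164 and in 0.132% of all windows. The windows with a Y537S-only region had a median GC content of 55.2%, against 52.2% for the other Dox-opened regions, 66.0% for regions open in all libraries and 58.7% over all windows. GC content thus differed between the sets as well, and its part in the motif shares was not tested. These matches describe the 0.999% of regions that overlapped a promoter window and say nothing of the rest, whose sequence was not used here. The windows cover starts of 79.2% of protein-coding genes and none on chromosome 8, so the 0.999% is not the share of all regions at starts.

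**Figure D1:**
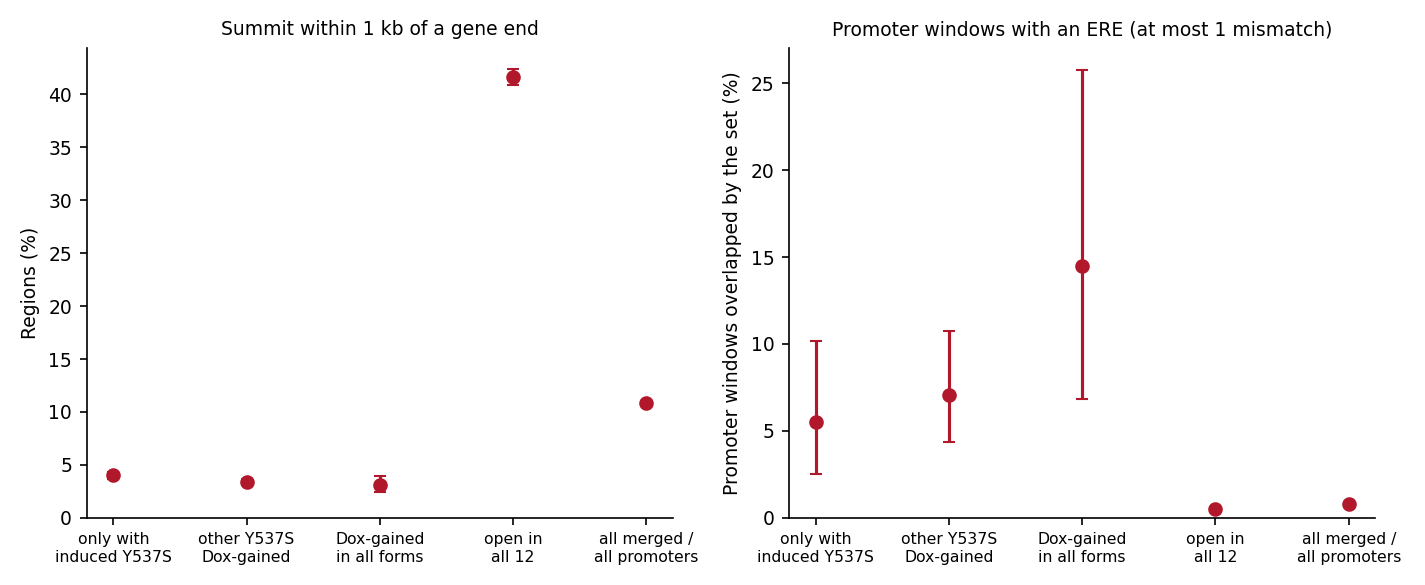
Left, percent of regions (vertical axis) whose summit is at most 1 kb from a gene end; right, percent of promoter windows overlapped by each set that hold an ERE with at most 1 mismatch. Points are shares for 5 sets of regions and bars are exact 95% intervals over regions or windows; the Y537S-only regions sit at 4.00% and 5.49%, far below (left) and above (right) the regions open in all 12 libraries, at 41.7% and 0.481%.

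The Y537S-only regions were weak peaks. Their median summit pileup was 8 fragments in Dox+E2 and 8 in Dox cells, with quartiles of 6 and 11 in both libraries and maxima of 49 in Dox+E2 and 39 in Dox cells. The other regions that Dox opened in Y537S cells, which also had a peak in at least 1 library of another form, had a median of 14 in Dox+E2 and 14 in Dox cells, and those opened in all 3 forms 23 and 23. In the authors' values the median fold enrichment of Y537S-only regions was 6.6 in Dox+E2 and 6.77 in Dox cells, and the median −log10 q was 7.41 and 7.79. A single summit was listed for 92.1% of them in Dox+E2 and 92.7% in Dox cells, against 72.4% and 72.1% of the other Dox-opened regions. Absence elsewhere is more easily met by a weak peak, so strength is tied to the rule and supports nothing by itself.

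**Figure D2:**
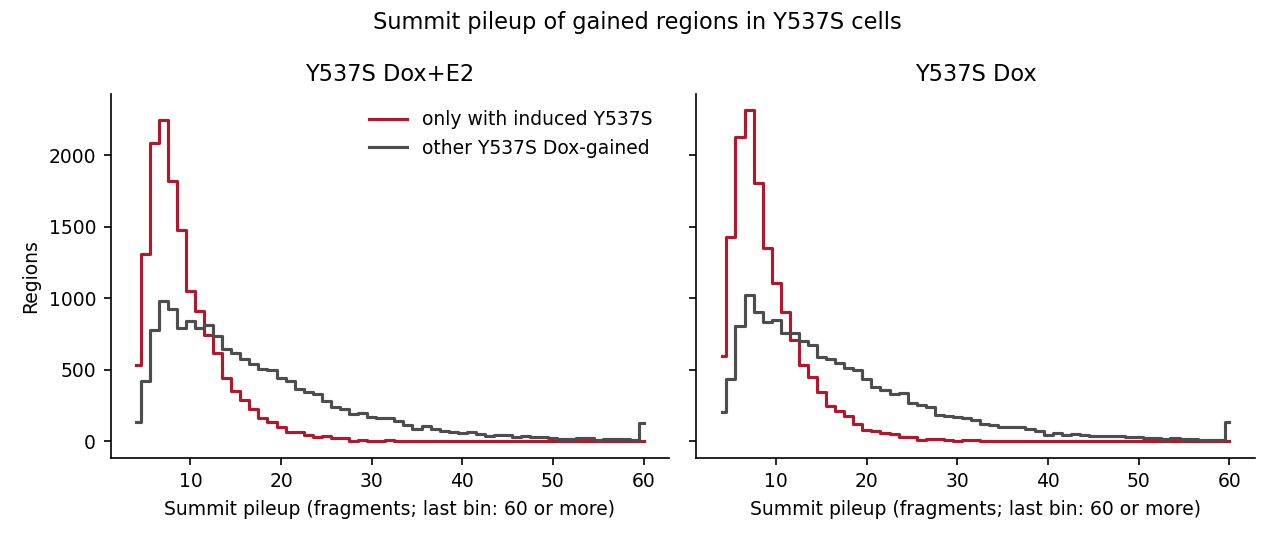
Number of regions (vertical axis) at each summit pileup in fragments (horizontal axis, last bin 60 or more) for Y537S Dox+E2 cells on the left and Dox cells on the right. The red line, Y537S-only regions with a median of 8 in each library, lies at lower pileups than the gray line, other regions gained with Dox in Y537S cells, with a median of 14.

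The share of Y537S-only regions among all regions that Dox opened in Y537S cells fell with strength. By the smaller of their pileups in the induced libraries, they were 76.0% of the Dox-opened regions at 4 to 5 fragments (3384 regions) and 65.1% at 6 to 9 (8083 regions). They were 40.5% at 10 to 14 (2540), 19.8% at 15 to 19 (628), 6.40% at 20 to 29 (170) and 0.868% at 30 or more (12). Overall they made up 48.8% of the 30358 Dox-opened regions and 19.9% of the 74514 regions open in both induced Y537S libraries. The same rule applied to K303R gave 1015 regions, 2.00% of the 50663 regions open in both of its Dox libraries, with a median pileup of 5 in Dox+E2 and 5 in Dox cells. For WT it gave 114 regions, 0.343% of 33196, with a median pileup of 6 and 6. The rule was harder to meet for K303R and WT, whose regions had to be absent from the Y537S libraries, with 68079 to 92700 open regions each. The K303R and WT libraries had 28300 to 72949. These counts were not adjusted for depth, so they do not compare the forms on equal terms. The mirror rule, a peak only in the E2 and untreated libraries of a form, gave 3052 regions for Y537S, 13 for K303R and 75 for WT. The 4 libraries of Y537S, and those of K303R, each carry 1 tag in their peak names, but the WT libraries with Dox carry another tag than those without. For WT the effect of Dox and that of whatever the tag marks cannot be told apart.

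The depth of the other libraries limits what absence of a peak means. The smaller Y537S pileup of each region was scaled by the ratio of signal at always-open regions and set against the lowest pileup listed in each other library, 3 to 5 fragments. All 14817 regions would have reached the listed level in the Y537S E2 and untreated libraries, and 11433 and 8580 (57.9%) of them would have reached 2 times that level. The count of 14817 was fixed in advance and shows nothing by itself. No region had a pileup below 4, the lowest listed in both of these libraries, and their signal (34 and 31) exceeded the 24 of the induced libraries. In K303R Dox+E2 and Dox cells 13728 would have reached the level in each and 4442 in each 2 times it. In WT Dox+E2 cells 6085 would have reached it and 810 would have reached 2 times it, and in WT Dox cells 11433 and 1916. In K303R untreated cells, the library with the fewest peaks, 2540 and 101 did so. Taken over all 10 libraries, 2540 regions (17.1%) had a scaled pileup at or above the lowest listed in each, and 101 (0.682%) at or above 2 times it. A scaled pileup at the lowest listed level does not make a listed peak certain. Both counts are those of K303R untreated, the library that stood apart; over the other libraries without it they were 4442 (29.98%) and 332 (2.24%), which are those of WT untreated. For the remaining regions the scaled pileup fell below the lowest listed level in at least 1 other library, so a like opening was not detectable there by this scale. These counts depend on the choice of scale, and scaling by background was not made. The background was 0.336 in Y537S E2 and 0.304 in untreated cells, against 0.364 in Dox+E2 and 0.329 in Dox cells.

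**Figure D3:**
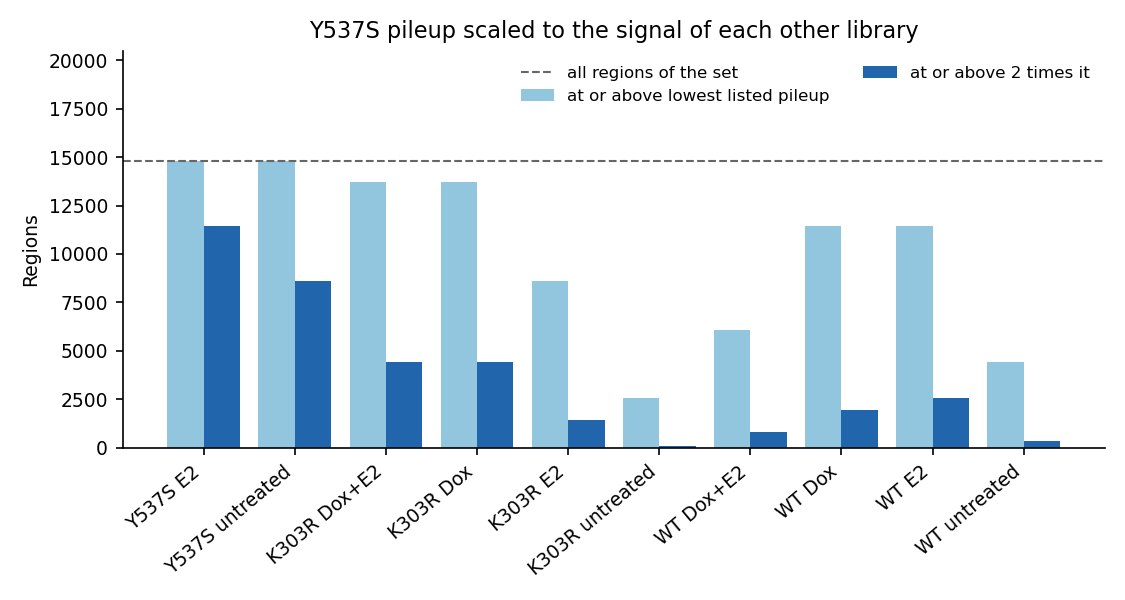
For each of the 10 libraries without a peak (horizontal axis), the number of Y537S-only regions (vertical axis) whose pileup, scaled to the signal of that library, reaches the lowest listed pileup (light bars) or 2 times it (dark bars); the dashed line marks all 14817. The light bars of the Y537S E2 and untreated libraries reach 14817, which the scaling fixed in advance. K303R untreated has the lowest bars, 2540 and 101.

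Just inside the rule, 1089 Y537S-only regions (7.35%) had a smaller pileup of 4 fragments, the lowest listed in either induced Y537S library. Just outside it, 6956 regions were open in both induced Y537S libraries and in exactly 1 other. That other library was K303R Dox+E2 for 2252 and WT Dox+E2 for 2404, together 66.9%. It was Y537S E2 for 689, Y537S untreated for 300, K303R Dox for 430 and WT Dox for 728, and the E2 and untreated libraries of K303R (14 and 44) and WT (62 and 33) took few. The regions shared with WT Dox+E2 had a median pileup of 13 in Y537S Dox+E2 and 13 in Y537S Dox cells but 6 in WT Dox+E2 cells, and those shared with K303R Dox+E2 had 11.5 and 11 in Y537S and 4 in K303R, near the lowest level listed there. Regions with a peak in only 1 induced Y537S library numbered 10203 for Dox+E2 and 9123 for Dox, with a median pileup of 6 in each and maxima of 18 and 17.

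**Figure D4:**
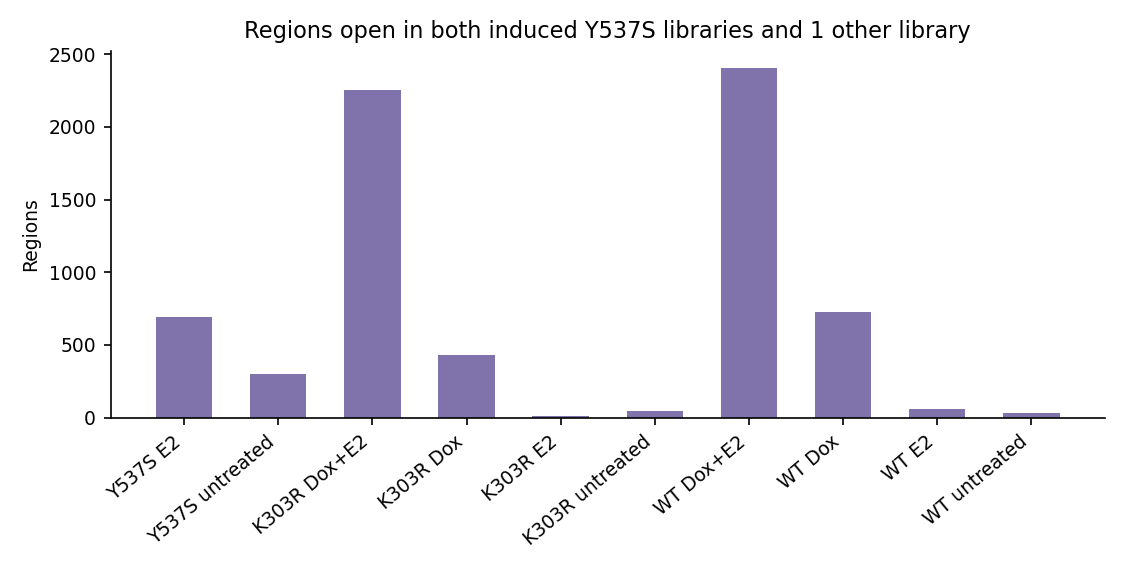
Number of regions (vertical axis) open in both induced Y537S libraries and in exactly 1 other library, by that library (horizontal axis). The K303R Dox+E2 and WT Dox+E2 bars, 2252 and 2404, are the highest of the 10.

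Within induced Y537S cells, pileups with and without E2 were centred on the same level. The ratio of the Dox+E2 to the Dox pileup had a median of 1, with quartiles of 0.800 and 1.30, and a median of 0.905 over background. The other Dox-opened regions had the same medians. The rule required a peak in both libraries, so regions listed in only 1 of them were left out, and the ratio describes only those that remained. The pileup was higher with E2 in 6681 regions, equal in 1961 and lower in 6175. It was at least 2 times higher in 624 and at least 2 times lower in 529, together 7.78%, against 5.33% of the other Dox-opened regions, whose pileups were larger. Across regions, which are not replicates, Pearson's r of the log2 pileups was 0.578, against 0.844 for the other Dox-opened regions. Both libraries share 1 tag in their peak names and 1 line. The summits of the 2 libraries lay a median of 48 bp apart, against 43 bp in the other Dox-opened regions and 28 bp in regions open in all 12 libraries.

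By median width, the Y537S-only regions were narrower than the other Dox-opened regions but not than all merged regions. Their median was 342 bp (quartiles 271 and 442 bp), against 533 bp for the other Dox-opened regions and 717 bp for those opened in all 3 forms. It was 1178.5 bp for regions open in all 12 libraries and 315 bp (quartiles 190 and 556 bp) for all merged regions. Widths of Y537S-only regions ran to 7425 bp, and 138 of them (0.931%) were wider than 1 kb. That share was 8.78% for the other Dox-opened regions and 9.43% for all merged regions. At equal strength the gap was smaller: at 10 to 14 fragments the median was 440 bp for Y537S-only and 508 bp for the other Dox-opened regions. A region's width spans the joined peaks of every library open there, and the other sets have peaks in more libraries. Width is therefore tied to the rule, also at equal strength, and the gap shows nothing by itself. The 5 widest held many summits each. At TEDC1, which encodes a tubulin-associated centriole protein, a stretch of 7425 bp (chr14:105493621-105501045) had 18 summits in Dox+E2 and 22 in Dox cells, with highest pileups of 32 and 19. The others were at PWWP3A (5116 bp, highest pileups 22 and 20), near PVALEF (4692 bp, 18 and 15), in MICAL2 (4440 bp, 35 and 28) and in UPF1, a helicase of nonsense-mediated RNA decay (4018 bp, 16 and 19).

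The strongest regions stood well above the background in both induced libraries. The 25 with the largest smaller −log10 q had 38.1 to 58.1 by that measure and pileups of 26 to 49. They lay on 15 chromosomes, 17 inside a gene, 5 within 100 kb of a gene end and 3 farther away, and their widths ran from 425 to 4440 bp with a median of 590 bp. The pileup was higher with Dox+E2 in 14, lower in 10 and equal in 1. The region first in rank lay in PI4KA, a kinase that makes phosphatidylinositol 4-phosphate (chr22:20746495-20747189), with a pileup of 37 in Dox+E2 and 39 in Dox cells. The largest difference among the 25 was 294 kb from TUSC1 (chr9:25972022-25972802), with 49 in Dox+E2 and 32 in Dox cells.

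ESR2, the gene of ER beta, the second estrogen receptor, had 1 of the 25 within its span (chr14:64248620-64249073), with a pileup of 31 in Dox+E2 and 28 in Dox cells, 22.2 kb from the gene's nearer end. Other regions of the 25 lay inside genes with various roles. ATP10B, a lipid flippase, had 37 in Dox+E2 and 35 in Dox cells, and ANO3, of the anoctamin family, had 41 and 33. NRXN3, a presynaptic adhesion protein, had 35 and 31, TENM4, a teneurin, 38 and 27, and CTNNA3, an alpha-catenin, 27 and 34. PTPRQ, a phosphatase of the receptor type, had 37 and 29, and the potassium channel gene KCNH5 27 and 30. SPTBN5, a beta-spectrin, had 33 in Dox+E2 and 32 in Dox cells, and MICAL2, an actin-oxidizing enzyme, had 35 and 28. The pileups were 28 and 33 in KLHL21, 30 and 30 in IRGQ, 36 and 28 in DRICH1 and 29 and 32 in LY75, an endocytic receptor of immune cells. Near but outside genes were the regions 7.11 kb from DTWD1 (33 and 32), 46.8 kb from LOC124903391 (44 and 35), 62.7 kb from OLFM4 (29 and 33), 65.4 kb from NECAB1 (45 and 33) and 88.3 kb from KHDRBS3 (32 and 34). SETD4 (32 and 34), at 196 kb, and NETO1 (29 and 32), at 157 kb, were the nearest genes of the remaining pair.

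**Figure D5:**
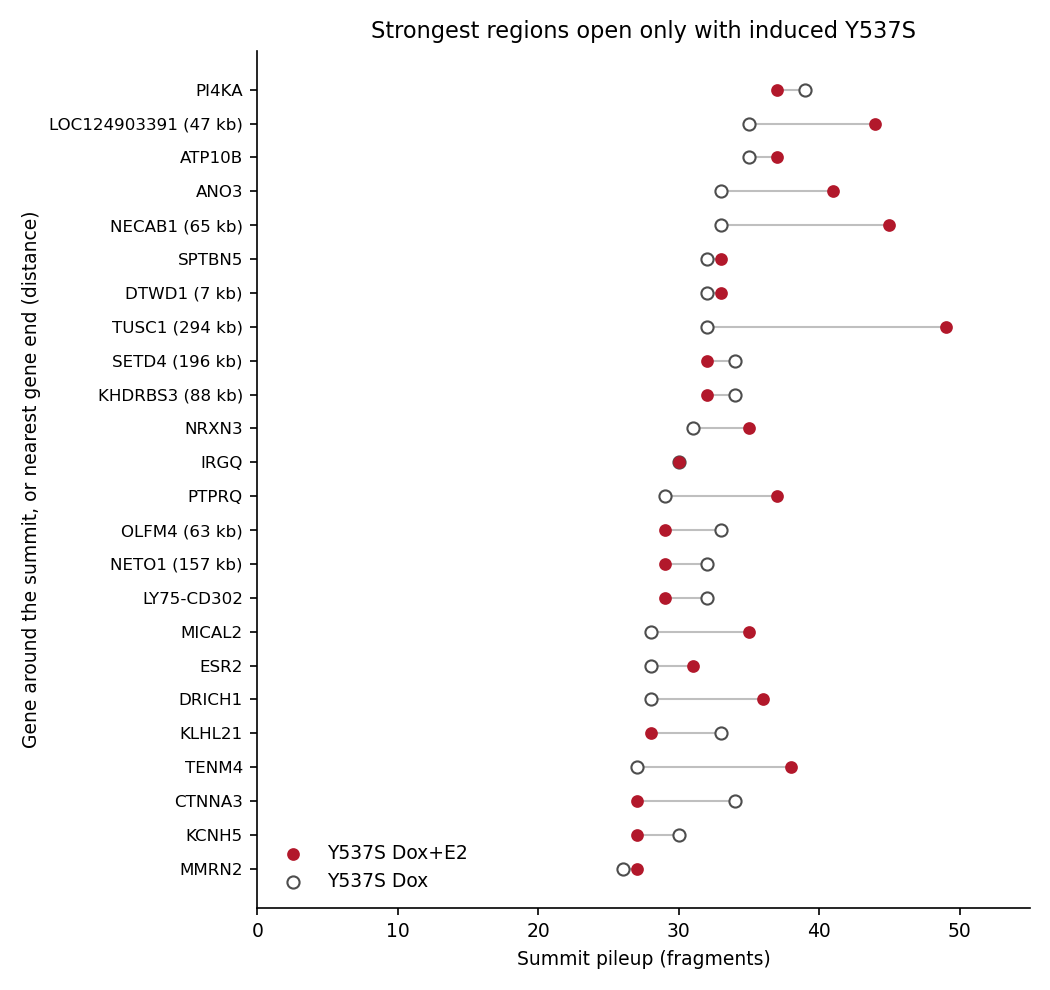
Summit pileup in fragments (horizontal axis) of all but 1 of the 25 strongest Y537S-only regions in Dox+E2 (filled) and Dox (open) cells, labelled by the gene around the summit or the nearest gene end with its distance. All pileups lie between 26 and 49, and regions higher and lower in Dox+E2 than in Dox cells are both present, with 1 equal.

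Y537S-only regions lay mostly away from gene ends. The share whose summit lay at most 1 kb from either end of a protein-coding gene was 4.00% (592 regions, exact 95% interval 3.69 to 4.32%), against 3.37% (3.09 to 3.66%) of the other Dox-opened regions, 10.9% of all merged regions and 41.7% of regions open in all 12 libraries. By transcription start in the promoter table, the share was 1.38% (194 of 14086 regions on chromosomes with starts in the table), against 1.54% of the other Dox-opened regions. In each of 5 classes of strength the intervals of the gene-end share overlapped between these sets. In the largest class, 6 to 9 fragments, the gene-end shares were 4.08% (3.66 to 4.54%) for Y537S-only and 3.20% (2.70 to 3.77%) for the other Dox-opened regions. A gene surrounded the summit in 54.7% of Y537S-only regions, in 53.9% of the other Dox-opened and in 52.4% of all regions. At 6 to 9 fragments this share was 54.2% (53.1 to 55.3%) for Y537S-only and 50.6% (49.1 to 52.1%) for the other Dox-opened regions, without overlap. In the other classes of strength its intervals overlapped. The median distance to a gene end was 29.3 kb, against 27.4 kb for the other Dox-opened regions, and 2327 (15.7%) lay outside genes and over 100 kb from an end, against 14.4%.

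At gene ends, the 5 strongest regions were as follows. The region in the overlapping genes MMRN2, an extracellular matrix protein of blood vessels, and SNCG, gamma-synuclein, 0.636 kb from the MMRN2 end, had a pileup of 27 in Dox+E2 and 26 in Dox cells. KCNH2, a cardiac potassium channel gene, had one at 0.501 kb with 27 and 25. In SP110, a nuclear body protein gene, a region 0.250 kb from the end of its neighbour SP140 had 25 and 30. FAM124A had 27 and 23 at 0.351 kb, and TUBA4B 23 and 26 at 0.236 kb.

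Open DNA of other kinds was more distant from Y537S-only regions than from the other Dox-opened regions. The median distance to a region open in all 12 libraries was 57.9 kb, against 40.2 kb. The nearest other Y537S-only region was a median of 31.7 kb away, and 32.3% had one within 0.0125 Mb. For the other Dox-opened regions, the nearest of their own kind was at a median of 19.4 kb, and 41.9% had one within that distance. Within 0.0125 Mb, 30.8% of Y537S-only regions had another Dox-opened region. A region lost with Dox in Y537S cells was that near for 10.9% of them, against 12.6% of the other Dox-opened regions. By chromosome, Y537S-only regions were from 6.55% of the regions on chromosome 6 to 11.7% on chromosome 18 and 11.9% on chromosome 21. The pileup of always-open regions on chromosome 6, relative to the whole genome, was 0.726 in Y537S against 0.953 in K303R and 0.972 in WT cells, and its part in the low share was not tested. The number was highest on chromosome 1, with 1408.

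Most Y537S-only regions stood alone. Joined by steps of at most 0.0125 Mb between summits, they formed 12036 runs, of which 10035 (67.7% of the regions) held 1 region. The largest run, over UPF1, CERS1 (a ceramide synthase) and GDF1 (a growth factor of the TGF-beta family), had 14 in 42.9 kb (chr19:18834936-18877795), among 19 Dox-opened of 48 regions there. FSCN2 and FAAP100, a Fanconi anemia core protein, had 11 in 26.9 kb, among 12 Dox-opened of 20 regions. FOXK2, a forkhead factor, and WDR45B had 10 in 31.1 kb, among 14 of 24. IL17RB, an interleukin-17 receptor, and ACTR8 had 9 in 16.3 kb, and PLCH2, a phospholipase C, and PANK4 had 9 in 26.7 kb. In both of these, all 9 Dox-opened regions were Y537S-only, as were the 9 in a run of the same size over PWWP3A, NDUFS7 and GAMT. Runs of 9 also lay over GPSM1 and DNLZ and over MEGF6.

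Of 19974 protein-coding genes, 10608 (53.1%) had a Y537S-only region in their span or within 50 kb of it. The genes with a region had a longer median span, 30.6 kb against 18.9 kb in those without. SHANK2, a synaptic scaffold gene of 785 kb, had the most, 29 of 324 regions, with a median smaller pileup of 6. Its share, 8.95%, was near the 8.90% of all merged regions that were Y537S-only. VAV2, a guanine nucleotide exchange factor, had 17 of 55 (30.9%). On chromosome 22, MAPK11 (17 of 74), HDAC10 (17 of 75) and MAPK12 (16 of 76), encoding p38 kinases and a deacetylase, have overlapping windows and share regions. LAMA5, a laminin chain, had 16 of 53 (30.2%), PLCH2 16 of 68 (23.5%) and CDH23, a cadherin of the inner ear, 16 of 94 (17.0%). GSE1 had 16 of 159 (10.1%) and CDK10, a cyclin-dependent kinase, 15 of 49 (30.6%). CERS1, GDF1 and PLXNA3 also had 15.

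The gene lists below were set up with earlier results of these data known, and each is given as a count beside the 53.1% of all protein-coding genes and the 8.21% of regions in their windows that were Y537S-only. Among 50 estrogen-response genes, 30 had a Y537S-only region, and 8.16% of the regions around the list were of that kind. The strongest were 37.1 kb from ADCY9, an adenylyl cyclase, with a pileup of 29 in Dox+E2 and 22 in Dox cells, and inside GREB1, an ER cofactor and classic estrogen target (21 and 21). FHL2, a LIM-domain cofactor, had 24 and 20 and CELSR1, a planar polarity cadherin, 21 and 18. GREB1 had 3 Y537S-only among 10 Dox-opened of 29 regions, so most of its Dox-opened regions were also open in another form. The share of genes with a region was 60% for the list, near that of all genes.

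Nuclear receptors and coregulators had a region at 21 of 26 genes (9.88% of regions), with a median gene span of 131 kb, against 24.2 kb over all protein-coding genes. After ESR2 came the region near CREBBP, an acetyltransferase coactivator, which is the same region as that of ADCY9. NCOA2, a p160 coactivator, had 28 in Dox+E2 and 16 in Dox cells. Luminal identity genes had a region at 9 of 24 and the lowest share of the lists, 1.99% of 652 regions counted once per gene. Near KRT7 the strongest had 11 and 11, near TFAP2A 14 and 10, near ERBB2 12 and 9 and in GRHL2 11 and 8.

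Basal and mesenchymal genes had a region at 12 of 24 (6.65% of regions), with 16 and 16 in EGFR, the EGF receptor, 13 and 25 in CDH2, N-cadherin, 13 and 13 near SNAI2 and 14 and 11 near FN1, fibronectin. Axon guidance genes had a region at 24 of 28 and 10.1% of regions, and their median span was 180 kb. ROBO2, a receptor for SLIT proteins, had 23 in Dox+E2 and 23 in Dox cells, SEMA5A, a semaphorin, 22 and 20, SLIT1 15 and 15 and SEMA3A 15 and 14. Receptor tyrosine kinases had a region at 16 of 28 (6.17%), among them 16 and 12 near EPHA2, 12 and 15 in RET and 12 and 11 in IGF1R; RET had 10 Y537S-only of 49 regions. WNT ligands and receptors had a region at 17 of 29 (7.77%), with 13 and 17 in WNT2, 13 and 13 near WNT11, 13 and 15 near LRP6, a WNT coreceptor, and 12 and 13 in WNT2B.

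Interferon-stimulated genes had a region at 13 of 22 (9.12%), with 23 in Dox+E2 and 21 in Dox cells 5.47 kb from IRF1, an interferon-response factor, and 14 and 10 near IRF9. MX1 and MX2 share 1 region, with 11 and 14. Immediate early genes had a region at 11 of 23 and 3.21% of regions, with 16 and 12 near DUSP6, a phosphatase of ERK, 16 and 12 near ZFP36, 12 and 10 near BTG2 and 10 and 10 near CCN1. Cell-cycle genes had a region at 11 of 25 (3.9%), with 14 and 13 near PCNA, 20 and 9 near E2F1, 9 and 10 in RB1 and 7 and 8 near MKI67. Housekeeping genes had a region at 10 of 23 (4.93%), with 20 and 25 near RPLP0, 20 and 14 near SNRPD3, 18 and 13 near RAB7A and 10 and 16 near PPIA. Genes of immune cells had a region at 7 of 16 (8.25%), the strongest in ITGAM with 17 and 18, then 10 and 9 near CD68, 9 and 13 near SPI1 and 18 and 8 near PTPRC. Those of fibroblasts and endothelial cells had one at 5 of 15 (5.43%), with 10 and 9 near DCN, 9 and 12 near COL1A1, 9 and 11 near PDGFRB and 7 and 7 in VWF. No list was tested, since the members were chosen from these libraries and genes share regions and differ in length.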

How the data were processed

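Peak lists of 12 ATAC-seq libraries, 1 per group, were used. The authors worked with MACS2, Picard, SAMtools, Bowtie2 and FastQC on hg38, per the submitters' processing notes, with versions and settings not given in the sources used here. Reads were 75 bp paired ends, per the labels. The deposited lists give for each peak a score (10 times the −log10 q), a fold enrichment over background, a −log10 p-value and a −log10 q-value, all made by the authors. Peaks were called per library. In the deposited fold, pileup and background each enter with 1 added, so the summit pileup was recovered as a whole number of fragments to within 0.000715.

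Peaks on chromosomes 1 to 22 and X were joined into regions at an overlap of at least 1 bp, without the 54 to 114 peaks a library had elsewhere. A region without a peak is not shown to be closed. Genes, spans and promoter windows came from RefSeq (GRCh38.p14); the promoter table holds starts for 79.2% of protein-coding genes, and starts on chromosome 8 were not used here. All 353 list genes were matched. Named are the 25 strongest regions by the smaller −log10 q, the 5 strongest at gene ends, the 5 widest, the largest runs, the 10 genes with the most regions and up to 4 genes per list; a few that these rules select, and 1 list, are not reported here. The members and lists were chosen with earlier results of these data known. Each group had 1 library, so no test was made; 95% intervals are exact (Clopper-Pearson) and cover counting error only. Alternatives were peak thresholds, equal list lengths, thinned pileups, other windows and left-out libraries. The merging and the rule were tested on simulated data. Python 3.11.15, pandas 2.3.3, NumPy 2.4.6, SciPy 1.17.1 and matplotlib 3.10.9 were used.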

Additional observations from a re-analysis of the deposited data

How the results depend on the processing

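The count of Y537S-only regions (14817) depended most on how depth was treated. With every list shortened to the 39522 strongest peaks it was 3205, of which 637 were among the 14817, and with pileups thinned to equal signal it was 4275, of which 1200 were. With scaled pileups, an alternative chosen after seeing the data, 2540 regions reached the lowest listed pileup in all 10 other libraries and 101 reached 2 times it in all 10. In the Y537S untreated and E2 libraries, 8580 reached 2 times it. Without K303R untreated, also chosen then, the first 2 counts were 4442 and 332. A −log10 q of at least 5 gave 14106 regions and at least 10 gave 11322, but only 9820 and 3350 were among the 14817. Windows of 250 bp to each side of summits gave 13814 and a peak cover of 50% gave 19662. Leaving out the 4 K303R libraries gave 17905, the 4 WT libraries 18660, and the untreated and E2 libraries 17966. The share within 1 kb of a gene end (4.00%) was 9.87% within 2.5 kb, 3.59% at a −log10 q of 10, 3.53% with equal lists and 1.38% by transcription starts, a distance chosen after seeing the data. At smaller pileups of at least 15 fragments, also chosen then, it was 3.83%. Genes with a region numbered 10608 within 50 kb, 7590 within 20 kb and 13582 within 100 kb, and the Dox+E2 over Dox ratio of median pileups was 1, or 0.905 over background. No paired analysis was possible because each group had 1 library and no result comes from a test.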
